A study of Mus musculus with 6 samples.

Results

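The alveolar type 1 (AT1) cells and the alveolar type 2 cells that the authors named AT2 Lyz1+ were compared in newborn mouse lung. The cells were every barcode with either of those deposited cluster names in the 2 libraries of postnatal day 1: 3819 AT1 and 1428 AT2 Lyz1+ cells, together 5247 of the 22821 cells with a class at day 1 and of 55882 in the series. Each library came from the pooled lungs of 3 wild-type C57BL/6N mice of 1 sex in room air (21% oxygen), dissociated and sorted for live cells, and read with 10x Genomics 3' chemistry that counts transcripts as unique molecular identifiers (UMIs). The other libraries of the series, from postnatal day 21 after room air or after neonatal 95% oxygen, were used for 1 description at the end.

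AT1 cells are the flat cells that line most of the alveolar surface and carry gas exchange next to the capillaries. AT2 cells are cuboidal, make and recycle surfactant in lamellar bodies, and can divide and give rise to AT1 cells. Around birth the epithelium clears the fluid of the fetal lung by sodium uptake and begins to release surfactant. Lyz1 encodes lysozyme 1, an enzyme that breaks bacterial cell walls and is close in sequence to the lysozyme 2 encoded by Lyz2.

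The female library gave 2054 AT1 and 407 AT2 Lyz1+ cells, and the male library gave 1765 and 1021. AT1 cells were 17.8% and 15.6% of the cells with a class, and AT2 Lyz1+ cells 3.53% and 9.05%. Here and below, a pair of values is the female library followed by the male. The median AT1 cell held 10293.5 and 9381 UMIs, and the median AT2 Lyz1+ cell 19540 and 20239 UMIs. Levels are therefore given as counts scaled to 1000000 UMIs of the class (CPM), which do not show whether a cell holds more or less RNA in all. Shares of cells with a UMI are given also after each cell was thinned to 2000 UMIs. The libraries shared 37 cell barcodes among the cells of day 1. Scrublet, which scores barcodes that look like 2 cells, marked 21.4% and 9.80% of AT1 cells and 23.1% and 9.30% of AT2 Lyz1+ cells. These cells were kept, and results were computed with and without them.

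For the comparison, UMIs were summed per class and library, and edgeR's quasi-likelihood test was fitted with the library as a block, so that both classes of a pool were set against each other. Log2 differences are AT1 minus AT2 Lyz1+, after scaling, with the standard error (SE) of the fit over 2 libraries a side. A gene was called at a Benjamini-Hochberg adjusted p under 0.05. The authors drew the classes from the expression of these same cells. The calls therefore order genes by the size and steadiness of the difference and are no test that the classes exist. With 1 residual degree of freedom, the test draws the variance of each gene toward values shared by the genes tested. The SE and p-values therefore rest partly on other genes and are not the spread between the 2 pools for that gene. The SE was 0.37 for Spock2, with log2 differences of 4.37 and 5.81 in the libraries. For Sftpa1 it was 0.18, with -7.49 and -7.44. With 1 pool a sex, and no word on whether mice of a pool were littermates, the p-values do not extend beyond these 2 pools.

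Of 13859 genes tested, 6441 were called (46.5%): 3227 were higher in AT1 cells (23.3%) and 3214 in AT2 Lyz1+ cells (23.2%). Every called gene had the same direction in both libraries, as did 11806 of all 13859 genes tested. With 2 libraries a gene with opposite directions would rarely be called, so this follows largely from the call. The values of the classes did not overlap for 10442 genes (75.3%). A count of members is read against these shares. Of the called genes 628 were at least 4-fold higher in AT1 cells and 762 at least 4-fold higher in AT2 Lyz1+ cells. The median log2 difference over the tested genes was 0.02, and 50.1% of the calls were higher in AT1 cells. With scaling by library size alone the median was 0.42 and 77.8% of the calls were higher in AT1 cells, so a log2 difference is relative to the other genes, and a gene at equal CPM in both classes lies below 0.

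**Figure D1:**
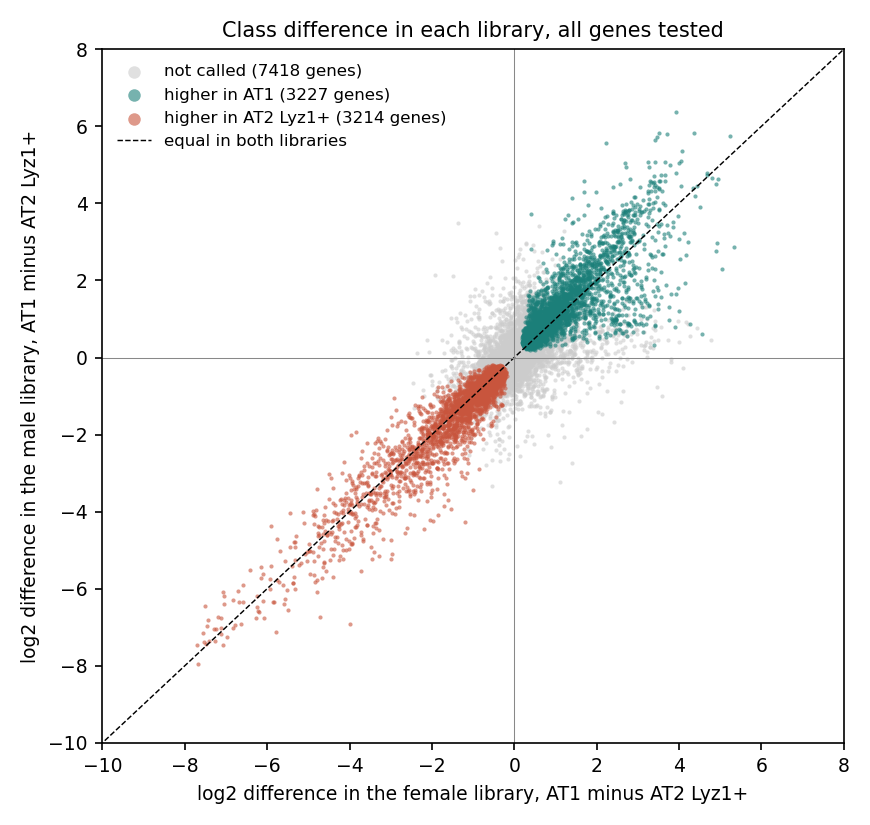
Log2 ratio of AT1 over AT2 Lyz1+ of each tested gene in the female library (horizontal axis) and in the male library (vertical axis), with called genes coloured by direction and a dashed line for equal values. The 6441 called genes lie in the quadrants where both libraries have the same sign, as do 11806 of all 13859 genes tested, called or not.

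The markers of AT1 and AT2 cells differed between the classes, as is likely for classes drawn from the expression of these same cells. Lyz1, the gene in the name AT2 Lyz1+, did not have a UMI in every cell of that class, as given with Lyz1 below. Of 20 genes known to mark AT1 cells, 19 were higher in AT1 cells and none in AT2 Lyz1+ cells. Of 20 genes known to mark AT2 cells, 19 were higher in AT2 Lyz1+ cells and none in AT1 cells. The gene of each list that was not called was Cyp2b10 (log2 difference 1.63, adjusted p = 0.333) and Lyz2 (-1.93, adjusted p = 0.0737). In the median AT1 cell the AT1 genes made up 3.62% and 3.49% of UMIs and the AT2 genes 0.272% and 0.322%. In the median AT2 Lyz1+ cell the AT2 genes made up 20.1% and 22.7% and the AT1 genes 0.252% and 0.220%. In general capillary cells (gCap), an endothelial class that holds genes of the AT1 list of its own, such as Cav1 at 1926 and 1658 CPM, the AT1 genes were 0.351% and 0.322% and the AT2 genes 0.164% and 0.175% of UMIs.

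**Figure D2:**
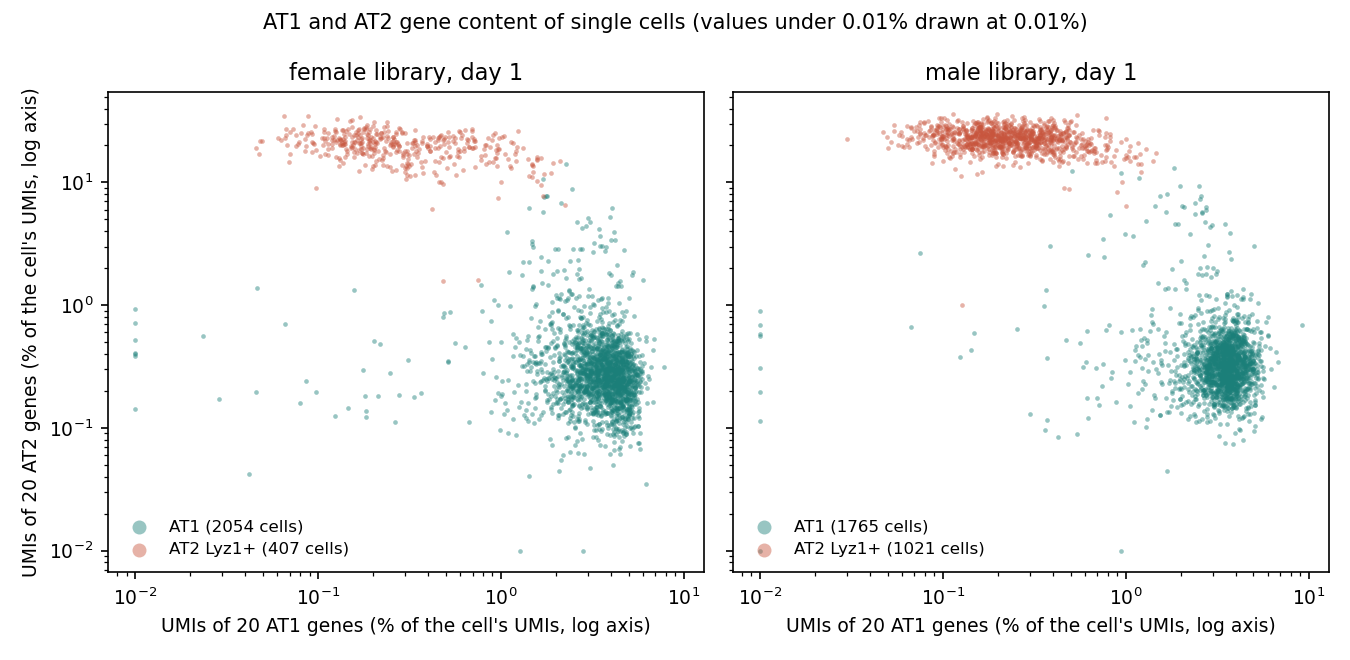
Share of each cell's UMIs from 20 AT1 genes (horizontal axis, percent) and from 20 AT2 genes (vertical axis, percent), 1 point a cell, for AT1 and AT2 Lyz1+ cells of each day 1 library. Most cells of the classes lie in separate clouds with a string of AT1 cells between them, and the medians were 3.62% and 3.49% AT1 content in AT1 cells and 20.1% and 22.7% AT2 content in AT2 Lyz1+ cells.

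Few cells reached a strict limit for both programmes. A cell was counted as holding both when each content reached the 5th percentile of the class that owns it (1.46% and 1.43% for the AT1 genes, 11.6% and 15.9% for the AT2 genes). That held for 1 female and 0 male AT1 cells. It held for 12 female AT2 Lyz1+ cells (2.95%) and 1 male one. Without barcodes marked by Scrublet, 2 of the 12 were left (0.639%). Content is a share of a cell's UMIs, so a cell with part of each programme can fall under these limits. The counts therefore do not show how rare mixed cells were. With a limit of 1%, chosen after the values were seen, 102 female (4.97%) and 84 male (4.76%) AT1 cells drew at least 1% of their UMIs from AT2 genes, up to 14.1% and 13.0% in single cells. Scrublet marked 24.5% and 17.9% of those cells, against 21.2% and 9.40% of the other AT1 cells. Of AT2 Lyz1+ cells, 34 (8.35%) and 17 (1.67%) drew at least 1% from AT1 genes. Scrublet marked 67.6% and 76.5% of them, against 19.0% and 8.17% of the rest.

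The surfactant protein genes were higher in AT2 Lyz1+ cells. Sftpc, which encodes surfactant protein C, had 157522 and 178448 CPM in AT2 Lyz1+ cells and 1505 and 2154 CPM in AT1 cells (log2 difference -6.94 ± 0.33, adjusted p = 1.96e-04). Its AT1 level came mostly from few cells: the tenth of AT1 cells with the most held 75.5% and 75.3% of the Sftpc UMIs of the class, and the median AT1 cell had 4 and 6, against 2 and 4 in gCap cells and 3180 and 3612 in AT2 Lyz1+ cells. Sftpb, whose hydrophobic product spreads the surfactant film, had 6073 and 6900.1 CPM in AT2 Lyz1+ cells and 45.9 and 72.4 CPM in AT1 cells (-7.21 ± 0.22). In both genes the 2 libraries lay closer together in AT2 Lyz1+ cells than in AT1 cells. The classes did not overlap, as for 75.3% of all genes tested. Sftpa1, a collagen-like lectin of surfactant, had 6486 and 7928 CPM in AT2 Lyz1+ cells and 47.7 and 60.0 CPM in AT1 cells (-7.47 ± 0.18). Sftpd, the related lectin that binds microbes, had 2522 and 2570.2 CPM in AT2 Lyz1+ cells and 146 and 179 CPM in AT1 cells (-4.38 ± 0.15). Sftpd was the surfactant protein gene with the highest level in AT1 cells relative to AT2 Lyz1+ cells.

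Surfactant transcripts were also found in AT1 cells and in gCap cells, and their source was not tested. Sftpc had a UMI in 94.5% and 98.5% of AT1 cells and 87.6% and 94.5% of gCap cells, whose median depths were 5642.5 and 5203 UMIs. After thinning the shares for Sftpc were 58.2% and 70.3% of AT1 cells and 56.9% and 73.0% of gCap cells, higher in AT1 cells in the female library alone. Sftpd differed from Sftpc in this. Its shares after thinning were 17.8% and 20.3% in AT1 cells and 2.67% and 2.51% in gCap cells, and gCap cells held 12.2 and 12.5 CPM of Sftpd against 146 and 179 CPM in AT1 cells.

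Most genes of the lamellar body were higher in AT2 Lyz1+ cells. In the list of surfactant and lamellar body genes 2 of 25 genes tested were higher in AT1 cells and 18 in AT2 Lyz1+ cells, with a median log2 difference of -1.65. With scaling by library size alone the counts were 6 and 17. Slc34a2 (chr5:53038081-53071664, plus strand), the sodium-phosphate transporter that recovers phosphate from surfactant, had 3619 and 3979 CPM in AT2 Lyz1+ cells and 22.9 and 29.7 CPM in AT1 cells (-7.59 ± 0.18, adjusted p = 5.21e-05). Lamp3, a lamellar body membrane protein, had 662 and 767 CPM in AT2 Lyz1+ cells and 4.58 and 5.91 CPM in AT1 cells (-7.50 ± 0.14). Abca3, which pumps phospholipid into the lamellar body, had 659 and 676 CPM in AT2 Lyz1+ cells and 57.8 and 52.9 CPM in AT1 cells (-3.99 ± 0.11). The smaller AT2 Lyz1+ excess of Abca3 still exceeded the spread between the libraries. Ctsh, a protease that trims surfactant protein precursors, had 2818 and 2805 CPM in AT2 Lyz1+ cells and 1284 and 1569 CPM in AT1 cells (-1.39 ± 0.14). The genes of the list higher in AT1 cells were Prdx6, an enzyme with phospholipase activity toward surfactant lipid, at 1339.9 and 1364 CPM in AT1 cells and 437 and 341 CPM in AT2 Lyz1+ cells (1.41 ± 0.14), and Lyst, a regulator of lysosome size, with a log2 difference of 0.34.

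Lyz1 and Lyz2 did not follow the same pattern, and their upstream sequences are shown with those of 3 surfactant system genes and of Ager, a gene higher in AT1 cells. Lyz1 (chr10:117287797-117292868, minus strand) had 4804 and 8484 CPM in AT2 Lyz1+ cells and 31.1 and 44.5 CPM in AT1 cells (-7.82 ± 0.20, adjusted p = 5.69e-05). Lyz2 (chr10:117277331-117282321, minus strand) had 308 and 925 CPM in AT2 Lyz1+ cells and 283 and 121 CPM in AT1 cells. The log2 difference of Lyz2 was -0.53 in the female and -3.33 in the male library, and it was not called (adjusted p = 0.0737). Without the barcodes marked by Scrublet it was -3.47 and was called. Lyz1 and Lyz2 lie next to each other and are close in sequence, and how the authors' counting treated reads matching both is not given in the sources used here. The windows are the 250 bases before the RefSeq start (GRCm38.p6), 5' to 3' on the strand of the gene: Sftpb chr6:72304360-72304609, Sftpa1 chr14:41131538-41131787, Slc34a2 chr5:53049103-53049352 and Ager chr17:34597600-34597849 on the plus strand, Lyz1 chr10:117292869-117293118 and Lyz2 chr10:117282273-117282522 on the minus strand. The Slc34a2 and Lyz2 windows lie before RefSeq starts that fall inside the GENCODE gene spans given above. Capitals mark matches, on either strand, to 5 sets of letters: CTCAAG (a core bound by NKX2-1), TTGCGCAA (the C/EBP palindrome), CAGGAAGT (an ETS core), GGAATG (a TEAD core) and TATAAA (the TATA box).
Sftpb: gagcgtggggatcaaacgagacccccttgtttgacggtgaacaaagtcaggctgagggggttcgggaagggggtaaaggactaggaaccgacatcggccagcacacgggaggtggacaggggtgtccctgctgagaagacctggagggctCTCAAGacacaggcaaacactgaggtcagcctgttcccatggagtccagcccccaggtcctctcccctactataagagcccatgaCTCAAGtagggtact
Sftpa1: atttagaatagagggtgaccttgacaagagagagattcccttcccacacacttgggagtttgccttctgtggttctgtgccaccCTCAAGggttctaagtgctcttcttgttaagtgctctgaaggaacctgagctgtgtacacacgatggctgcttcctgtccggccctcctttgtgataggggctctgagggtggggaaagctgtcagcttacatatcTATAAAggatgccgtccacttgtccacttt
Slc34a2: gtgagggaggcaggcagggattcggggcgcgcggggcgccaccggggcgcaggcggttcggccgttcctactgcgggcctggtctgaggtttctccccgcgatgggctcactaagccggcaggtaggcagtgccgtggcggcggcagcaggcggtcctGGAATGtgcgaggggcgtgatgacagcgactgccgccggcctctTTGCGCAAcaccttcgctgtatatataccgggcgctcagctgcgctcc
Lyz1: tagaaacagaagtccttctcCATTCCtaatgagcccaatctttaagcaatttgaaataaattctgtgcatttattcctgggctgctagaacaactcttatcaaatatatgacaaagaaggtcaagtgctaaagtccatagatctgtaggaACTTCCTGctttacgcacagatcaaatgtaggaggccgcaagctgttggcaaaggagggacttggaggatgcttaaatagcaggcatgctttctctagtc
Lyz2: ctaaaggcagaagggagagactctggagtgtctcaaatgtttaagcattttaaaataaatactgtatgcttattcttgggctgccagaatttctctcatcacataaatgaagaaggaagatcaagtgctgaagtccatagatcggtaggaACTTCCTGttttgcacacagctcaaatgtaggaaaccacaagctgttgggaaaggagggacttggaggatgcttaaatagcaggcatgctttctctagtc
Ager: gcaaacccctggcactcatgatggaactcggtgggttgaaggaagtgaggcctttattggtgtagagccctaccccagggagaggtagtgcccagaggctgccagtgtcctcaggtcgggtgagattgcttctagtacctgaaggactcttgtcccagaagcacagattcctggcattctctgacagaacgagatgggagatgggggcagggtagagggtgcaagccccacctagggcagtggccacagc
Sftpb held CTCAAG at 100 and 15 bases before the start, and Sftpa1 held it at 166 bases, with TATAAA at 30 bases. CTCAAG was in 13.3% of all 32851 promoter windows and TATAAA in 12.4%. Slc34a2 held TTGCGCAA at 48 bases, a match found in 0.164% of windows, and GGAATG at 92 bases. Lyz1 and Lyz2 both held CAGGAAGT at 100 bases on the strand opposite the gene, printed above as its reverse complement, a match found in 2.69% of windows, and Lyz1 held GGAATG (12.6% of windows) at 230 bases, also on the opposite strand. Ager held none of the 5, and no matches overlapped. The Lyz1 and Lyz2 windows were identical at 152 of 250 positions (60.8%) without gaps: 115 of the 125 bases next to the start and 37 of the 125 farther away. The 50 bases next to the start were the same in both. A match is a description of the letters and no evidence of binding.

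Lyz1 was uneven among the cells named for it. Of AT2 Lyz1+ cells, 35.1% and 22.9% had no Lyz1 UMI, the median cell had 3 and 27, and the cell with the most had 1265 and 1246. The authors' class named AT2 had 54 and 629 cells, of which Scrublet marked 79.6% and 7.15%. It held 3422 and 5652 CPM of Lyz1 and had a Lyz1 UMI in 74.1% and 76.9% of cells, against 64.9% and 77.1% of AT2 Lyz1+ cells. At least 10 Lyz1 UMIs were found in 44.2% and 53.7% of AT2 Lyz1+ cells and in 46.3% and 45.9% of AT2 cells. Lyz2 differed more between those 2 classes, with 9765 and 13167 CPM in AT2 cells and a median of 186.5 and 248 UMIs a cell, against 1 and 2 UMIs in the median AT2 Lyz1+ cell. The difference between the AT2 classes was not tested. In AT1 cells 15.7% and 23.5% had a Lyz1 UMI, and after thinning 4.27% and 7.28%, close to the 4.06% and 7.46% of gCap cells.

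Genes with at least 100 UMIs in AT2 Lyz1+ cells of each library were ranked by the fitted difference toward AT2 Lyz1+ cells. The 12 largest were Fabp12, Lyz1, Cst8, Chia1, Slc34a2, Pbld2, Lamp3, Csf2, Sftpa1, Cblif, Il33 and C6. Fabp12, of the fatty acid binding protein family, had 34.1 and 37.3 CPM in AT2 Lyz1+ cells and 3 and 3 UMIs in all in AT1 cells. Chia1, a chitinase, had 51.4 and 80.0 CPM in AT2 Lyz1+ cells and 0.308 and 0.521 CPM in AT1 cells (-7.69 ± 0.14). Both were low in AT2 Lyz1+ cells and near the floor of 3 UMIs or a few times above it in AT1 cells.

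In the lipid synthesis list 4 of 41 genes tested were higher in AT1 cells and 23 in AT2 Lyz1+ cells, with a median log2 difference of -0.69. The counts were 12 and 20 with scaling by library size alone. Scd1, which desaturates fatty acids, had 469 and 690.4 CPM in AT2 Lyz1+ cells and 3.87 and 6.77 CPM in AT1 cells (-7.19 ± 0.14), and Fabp5, a fatty acid binding protein, had 2759 and 2997 CPM in AT2 Lyz1+ cells and 64.1 and 48.2 CPM in AT1 cells (-6.09 ± 0.20). Fasn, the fatty acid synthase, had 297 and 304 CPM in AT2 Lyz1+ cells and 22.4 and 17.1 CPM in AT1 cells (-4.33 ± 0.14), and Gpam, which starts glycerolipid synthesis, had a log2 difference of -4.46. Acsl3, which activates long-chain fatty acids, went the other way at 39.6 and 54.1 CPM in AT1 cells and 15.9 and 9.81 CPM in AT2 Lyz1+ cells (1.53 ± 0.28). Mgll (0.82), Elovl5 (0.79) and Chpt1 (0.35) were also higher in AT1 cells. Among the genes not called were those of cholesterol synthesis Fdps (0.07), Cyp51 (0.10), Sqle (0.48), Idi1 (-0.19), Fdft1 (0.25) and Lss (-0.40).

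AT1 cells held high levels of a receptor, of structural genes and of membrane channels. Ager (chr17:34597862-34600936, plus strand), the receptor for advanced glycation end products and an AT1 marker, had 7516 and 7763 CPM in AT1 cells and 995 and 725 CPM in AT2 Lyz1+ cells (2.77 ± 0.19, adjusted p = 4.51e-04). Hopx, a homeodomain protein without DNA binding, had 3633 and 3515 CPM in AT1 cells and 330.3 and 174 CPM in AT2 Lyz1+ cells (3.50 ± 0.25). Ager in AT2 Lyz1+ cells was above the 117 and 140.4 CPM of gCap cells in both libraries, with a UMI in 67.6% and 67.6% of thinned cells against 13.4% and 14.3%. Hopx had 169.6 and 147 CPM in gCap cells, and a UMI in 36.4% and 21.5% of thinned AT2 Lyz1+ and 23.5% and 17.8% of thinned gCap cells. Rtkn2 had 1059.9 and 1109 CPM in AT1 cells and 48.4 and 24.6 CPM in AT2 Lyz1+ cells (4.58 ± 0.29), and Pdpn, a mucin-type membrane protein, had 207 and 123 CPM in AT1 cells and 14.1 and 5.15 CPM in AT2 Lyz1+ cells (3.82 ± 0.19). Igfbp2, which binds insulin-like growth factors, was uneven between the libraries at 40.7 and 11.9 CPM in AT1 cells and 1.62 and 1.36 CPM in AT2 Lyz1+ cells (3.40 ± 0.33).

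**Figure D3:**
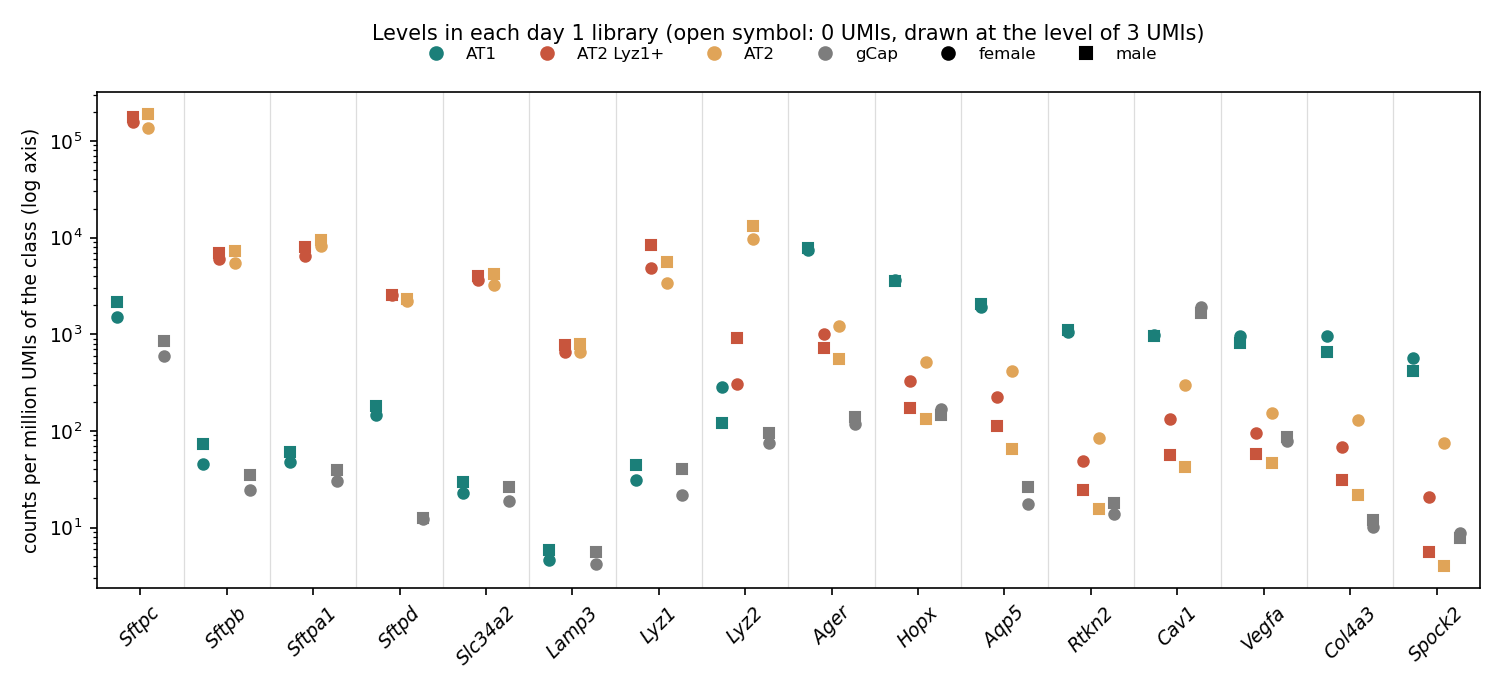
CPM (log axis) of 16 named genes in AT1, AT2 Lyz1+, AT2 and gCap cells, with a circle for the female and a square for the male library. For Ager the AT1 points are at 7516 and 7763 CPM and the AT2 Lyz1+ points at 995 and 725 CPM.

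Among genes with at least 100 UMIs in AT1 cells of each library, the 12 with the largest fitted difference toward AT1 cells were Gm38405, Cyp2s1, Cped1, Spock2, Gm16212, Rnd1, Serpinb9b, Scel, Baiap2l2, Ankrd34b, Rasgrf2 and Wfdc1. Gm38405 (chr7:99870666-99889358, minus strand) is an antisense gene with 253 and 113 UMIs in AT1 cells and 1 and 0 UMIs in AT2 Lyz1+ cells. Gm16212 is antisense too. The sources used here do not say whether the counting used strand, so whether reads of both belong to the genes they overlap is not known. Spock2 (chr10:60106219-60135198, plus strand), a matrix proteoglycan, had 568 and 419.7 CPM in AT1 cells and 20.7 and 5.59 CPM in AT2 Lyz1+ cells (5.08 ± 0.37, adjusted p = 5.66e-04). Cped1 had 77.6 and 79.3 CPM in AT1 cells and 3.73 and 0.631 CPM in AT2 Lyz1+ cells (5.19 ± 0.47), and Wfdc1, a secreted protease inhibitor of the whey acidic protein family, had 337 and 436 CPM in AT1 cells and 14.9 and 8.01 CPM in AT2 Lyz1+ cells (4.76 ± 0.33).

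Basement membrane genes were mostly higher in AT1 cells: 21 of 27 genes tested were higher in AT1 cells and 3 in AT2 Lyz1+ cells, with a median log2 difference of 1.22. Col4a3, of the chain set found in the alveolar and glomerular basement membrane, had 949.6 and 659.5 CPM in AT1 cells and 68.7 and 31.1 CPM in AT2 Lyz1+ cells (3.70 ± 0.19), and its partner Col4a4 had 1118 and 825 CPM in AT1 cells and 89.1 and 39.6 CPM in AT2 Lyz1+ cells (3.61 ± 0.21). The third partner, Col4a5, had 159.9 and 168 CPM in AT1 cells and 40.1 and 36.5 CPM in AT2 Lyz1+ cells (1.70 ± 0.10). Col4a1, of the widely expressed chain set, had 1240.4 and 1239 CPM in AT1 cells and 506 and 406 CPM in AT2 Lyz1+ cells (1.05 ± 0.13), Col4a2 had a log2 difference of 1.09 ± 0.11, and Col4a6 one of 1.84 ± 0.23. All 6 chains were higher in AT1 cells. The laminin chain gene Lamb1 was higher in AT2 Lyz1+ cells, at 69.8 and 61.0 CPM in AT2 Lyz1+ cells and 7.04 and 6.43 CPM in AT1 cells (-3.68 ± 0.10), as were Col18a1 (-2.03) and Frem2 (-0.71).

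Genes of membrane shape and cell contact followed. In the caveolae list 8 of 9 genes tested were higher in AT1 cells and 1 in AT2 Lyz1+ cells, with a median log2 difference of 2.62 (8 and 0 called with scaling by library size alone). Without the barcodes marked by Scrublet the median was 3.20, Cav1 stood at 4.28 and Cavin3 at 4.54. Cav1, the coat protein of caveolae, had 975 and 959.7 CPM in AT1 cells and 132 and 55.8 CPM in AT2 Lyz1+ cells (3.10 ± 0.32), and Cavin3, which shapes them, had 573 and 661 CPM in AT1 cells and 52.0 and 23.4 CPM in AT2 Lyz1+ cells (3.75 ± 0.35). Pacsin3 was the exception (-0.45). In the junction list 22 of 32 genes tested were higher in AT1 cells and 6 in AT2 Lyz1+ cells, with a median log2 difference of 0.74. Cldn18, the claudin of the alveolar tight junction, was high in both classes at 3121 and 2409 CPM in AT1 cells and 1259 and 1121 CPM in AT2 Lyz1+ cells (0.81 ± 0.12). Ocln, occludin, had 162 and 172 CPM in AT1 cells and 35.2 and 27.2 CPM in AT2 Lyz1+ cells (2.04 ± 0.14). Nectin1, an adhesion protein of adherens junctions, was higher in AT2 Lyz1+ cells at 79.6 and 80.0 CPM in AT2 Lyz1+ cells and 12.8 and 13.6 CPM in AT1 cells (-2.99 ± 0.09), with Tjp3 (-1.75) and Nectin4 (-1.37) on the same side.

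The cytoskeleton, annexin and keratin list had 28 of 33 genes tested higher in AT1 cells and 2 in AT2 Lyz1+ cells (median log2 difference 1.67). S100a6, a calcium-binding protein, had 4844 and 3694 CPM in AT1 cells and 344 and 126 CPM in AT2 Lyz1+ cells (3.94 ± 0.30). The keratin gene Krt19 had 1085 and 1101 CPM in AT1 cells and 122 and 80.7 CPM in AT2 Lyz1+ cells (3.06 ± 0.19), with Krt7 at 2.61 and Krt8 at 2.41. Anxa6 (-1.05) and Anxa4 (-0.79) were the members higher in AT2 Lyz1+ cells.

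Ion and water transport genes were divided between the classes: 11 of 25 genes tested were higher in AT1 cells and 9 in AT2 Lyz1+ cells, with a median log2 difference of 0.16. All 3 subunit genes of the epithelial sodium channel, which takes up sodium from the airspace, were higher in AT1 cells. Scnn1a had 612 and 583 CPM in AT1 cells and 153 and 90.7 CPM in AT2 Lyz1+ cells (1.94 ± 0.19), Scnn1b had 198 and 139 CPM in AT1 cells and 14.1 and 4.81 CPM in AT2 Lyz1+ cells (3.93 ± 0.26), and Scnn1g had 368 and 350.2 CPM in AT1 cells and 32.2 and 19.5 CPM in AT2 Lyz1+ cells (3.45 ± 0.19). The alpha subunit gene Scnn1a thus differed least of the 3. Of the water channels, Aqp5 had 1909 and 2034 CPM in AT1 cells and 223 and 113 CPM in AT2 Lyz1+ cells (3.24 ± 0.29) and Aqp1 had 837 and 950.5 CPM in AT1 cells and 141 and 63.2 CPM in AT2 Lyz1+ cells (2.84 ± 0.34), while Aqp3 had 7.09 and 4.32 CPM in AT2 Lyz1+ cells and 1.06 and 0.811 CPM in AT1 cells (-2.99 ± 0.29). Aqp4 was near 0 in both, at 1.32 and 0.811 CPM in AT1 cells and 0 and 0.340 CPM in AT2 Lyz1+ cells. The chloride channel gene Cftr was higher in AT2 Lyz1+ cells at 55.9 and 74.3 CPM in AT2 Lyz1+ cells and 7.08 and 8.11 CPM in AT1 cells (-3.49 ± 0.10), together with the potassium channel gene Kcnq1 (-2.04) and the chloride cotransporter gene Slc12a2 (-1.64).

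**Figure D4:**
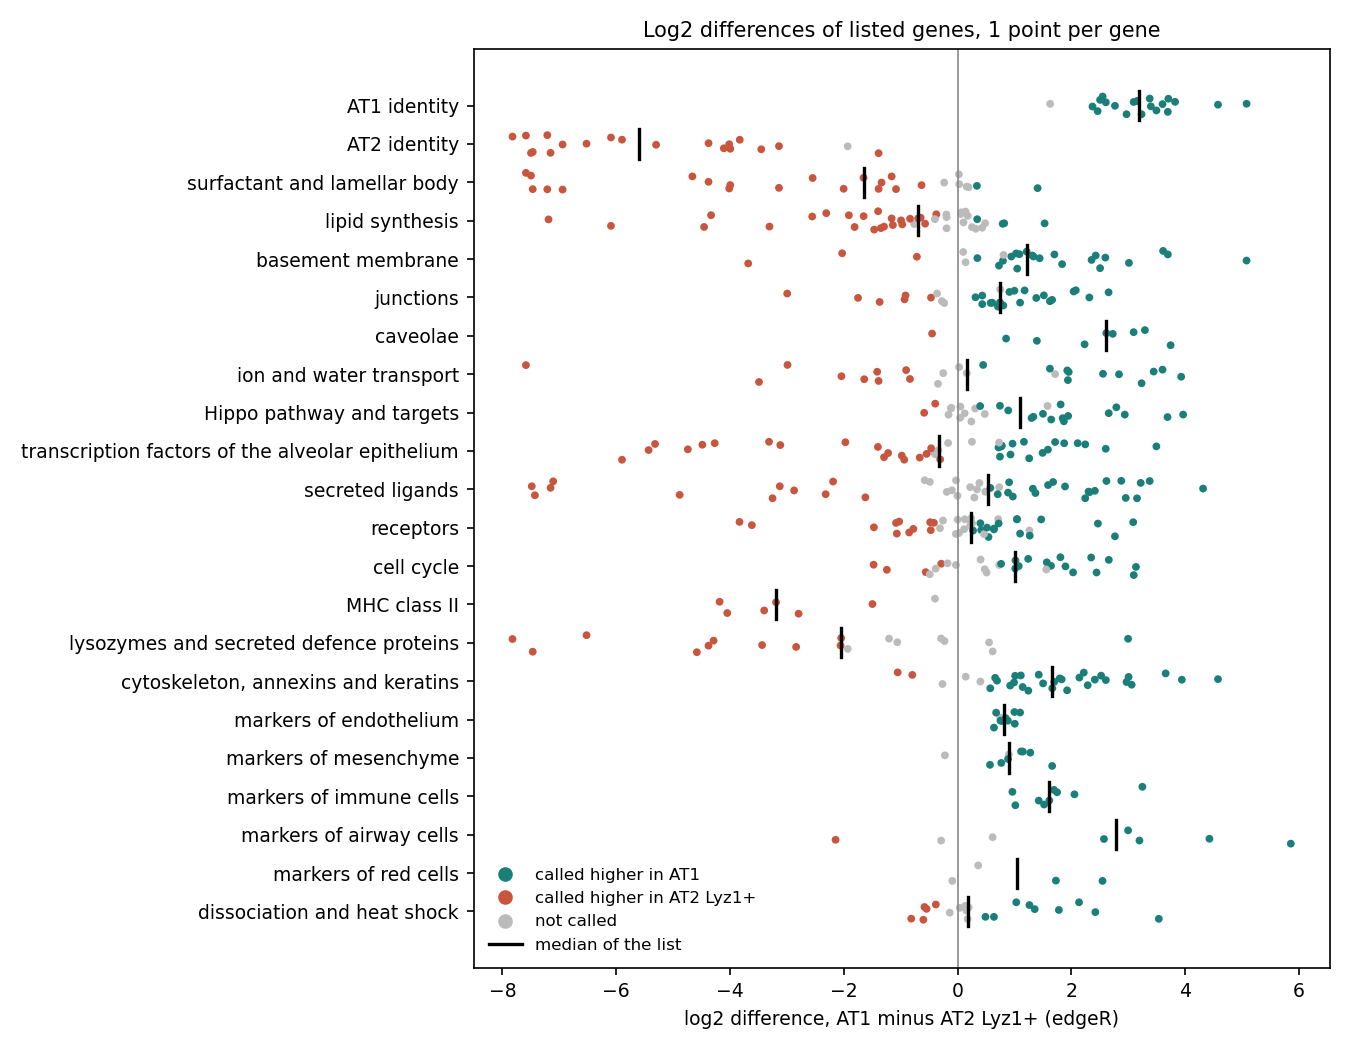
Log2 difference, AT1 minus AT2 Lyz1+, of each tested gene of each list coloured by call, with a bar at the median of the list. The lists of AT1 identity and caveolae lie mostly above 0 and that of AT2 identity mostly below it.

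Transcription factors fell on both sides: 16 of 40 genes tested were higher in AT1 cells and 18 in AT2 Lyz1+ cells, with a median log2 difference of -0.32 (0.08 with scaling by library size alone). Etv5, an ETS factor of AT2 cells, had 165 and 197 CPM in AT2 Lyz1+ cells and 3.08 and 5.10 CPM in AT1 cells (-5.90 ± 0.16). Elf5, another ETS factor, had 160.2 and 173 CPM in AT2 Lyz1+ cells and 4.93 and 5.27 CPM in AT1 cells (-5.43 ± 0.10), and Cebpa, the C/EBP factor of AT2 maturation, had 274 and 256 CPM in AT2 Lyz1+ cells and 9.63 and 7.93 CPM in AT1 cells (-5.32 ± 0.11). The distal progenitor factor Sox9 had 47.7 and 45.3 CPM in AT2 Lyz1+ cells and 6.56 and 5.79 CPM in AT1 cells (-3.31 ± 0.10). Beside Hopx, Mycn (2.61), Klf6 (2.25), Hes1 (2.11) and Gata6 (1.17) were higher in AT1 cells. Nkx2-1, the factor that marks the lung epithelium as a whole, had 565 and 615 CPM in AT1 cells and 494 and 507 CPM in AT2 Lyz1+ cells and was not called (-0.17 ± 0.10, adjusted p = 0.233).

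In the Hippo list, a pathway that restrains the coactivators YAP1 and TAZ and through them the TEAD factors, 16 of 28 genes tested were higher in AT1 cells and 2 in AT2 Lyz1+ cells, with a median log2 difference of 1.10. The counts were 24 and 0 with scaling by library size alone. Of its target genes, Ccn2 had 509 and 459.8 CPM in AT1 cells and 36.8 and 14.96 CPM in AT2 Lyz1+ cells (3.97 ± 0.30), Ccn1 had 327 and 358 CPM in AT1 cells and 21.5 and 18.9 CPM in AT2 Lyz1+ cells (3.69 ± 0.13), and Ajuba (2.79) was also higher in AT1 cells. Ankrd1 was called higher in AT1 cells with 63 and 17 UMIs there and 4 and 0 UMIs in AT2 Lyz1+ cells, too few for a precise difference. Wwtr1, which encodes TAZ, had 329 and 333 CPM in AT1 cells and 106 and 93.5 CPM in AT2 Lyz1+ cells (1.33 ± 0.10), and Tead1 had 361 and 262 CPM in AT1 cells and 71.0 and 51.5 CPM in AT2 Lyz1+ cells (1.94 ± 0.09). Yap1 had 33.6 and 35.5 CPM in AT1 cells and 31.5 and 25.8 CPM in AT2 Lyz1+ cells and was not called (-0.12 ± 0.12, adjusted p = 0.468). Vgll4 (-0.59) and Stk3 (-0.39), a cofactor and a kinase that act against YAP1, TAZ and the TEAD factors, were slightly higher in AT2 Lyz1+ cells. With scaling by library size alone Stk3 stood at 0.0093.

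Secreted ligands were called in both directions: 21 of 44 genes tested were higher in AT1 cells and 11 in AT2 Lyz1+ cells, with a median log2 difference of 0.53. The AT2 Lyz1+ count was near the 23.2% of all genes tested. Vegfa, the growth factor of blood vessels, had 952 and 807 CPM in AT1 cells and 95.7 and 58.1 CPM in AT2 Lyz1+ cells (3.16 ± 0.16), and the AT1 level was above the 78.3 and 86.3 CPM of gCap cells. Pdgfa, which acts on mesenchyme, had 486 and 501 CPM in AT1 cells and 86.7 and 71.9 CPM in AT2 Lyz1+ cells (2.24 ± 0.12). Wnt3a had 33.0 and 33.6 CPM in AT1 cells and 1.87 and 0.971 CPM in AT2 Lyz1+ cells (4.32 ± 0.24). The semaphorin gene Sema3e had 194 and 122 CPM in AT1 cells and 12.9 and 9.57 CPM in AT2 Lyz1+ cells (3.38 ± 0.10), and Nrg1, a ligand of ERBB receptors, had 27.01 and 25.5 CPM in AT1 cells and 2.24 and 2.04 CPM in AT2 Lyz1+ cells (3.22 ± 0.15). Wnt7a (2.88), Sema3a (2.96) and Shh (1.59) were on the same side.

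The largest differences toward AT2 Lyz1+ cells among the ligands were those of Csf2, Il33, Cxcl15 and Dlk1. Csf2, the growth factor on which alveolar macrophages depend, had 20.5 and 14.8 CPM in AT2 Lyz1+ cells and 3 and 2 UMIs in all in AT1 cells. Il33, an alarmin for type 2 immunity, had 108 and 202 CPM in AT2 Lyz1+ cells and 0.924 and 1.39 CPM in AT1 cells (-7.43 ± 0.13). Cxcl15, a chemokine made in lung epithelium, had 3469 and 4229 CPM in AT2 Lyz1+ cells and 30.2 and 41.8 CPM in AT1 cells (-7.15 ± 0.17). The male library was higher in Il33, and in each of the 3 genes the classes lay far apart. Dlk1, a non-canonical Notch ligand of fetal tissues, had 2534 and 3649 CPM in AT2 Lyz1+ cells and 26.8 and 31.6 CPM in AT1 cells (-7.11 ± 0.17) and a median of 39 and 68 UMIs in an AT2 Lyz1+ cell. Il34 (-4.88), a ligand of the CSF1 receptor, and Areg (-3.25), a ligand of the EGF receptor, were also higher there, as were Bmp3 (-3.12), Slit3 (-2.87), Bmp2 (-2.32), Fgf9 (-2.19) and Jag1 (-1.62).

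Receptors were called in both directions too: 16 of 41 genes tested were higher in AT1 cells and 11 in AT2 Lyz1+ cells, with a median log2 difference of 0.24. The AT2 Lyz1+ count was near the 23.2% of all genes tested. With scaling by library size alone the counts were 25 and 6, against 6534 and 1866 of all 13859 genes tested. With DESeq2 they were 12 and 6, against 1786 and 1909 of 13859. Egfr had 95.4 and 109 CPM in AT1 cells and 10.5 and 8.31 CPM in AT2 Lyz1+ cells (3.09 ± 0.15), and Igf1r had 263 and 261 CPM in AT1 cells and 43.5 and 29.8 CPM in AT2 Lyz1+ cells (2.47 ± 0.16). The EGF receptor was thus higher in AT1 cells and its ligand gene Areg in AT2 Lyz1+ cells. Fgfr2, the receptor through which mesenchymal FGFs act on distal epithelium, had 244 and 268 CPM in AT2 Lyz1+ cells and 28.2 and 26.9 CPM in AT1 cells (-3.62 ± 0.10), and Met, the receptor of hepatocyte growth factor, had 68.3 and 83.9 CPM in AT2 Lyz1+ cells and 6.34 and 7.76 CPM in AT1 cells (-3.83 ± 0.09). Csf2ra, which encodes a subunit of the receptor for the product of Csf2, had 19.5 and 14.5 CPM in AT1 cells and 5.599 and 6.41 CPM in AT2 Lyz1+ cells (1.04 ± 0.18).

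**Figure D5:**
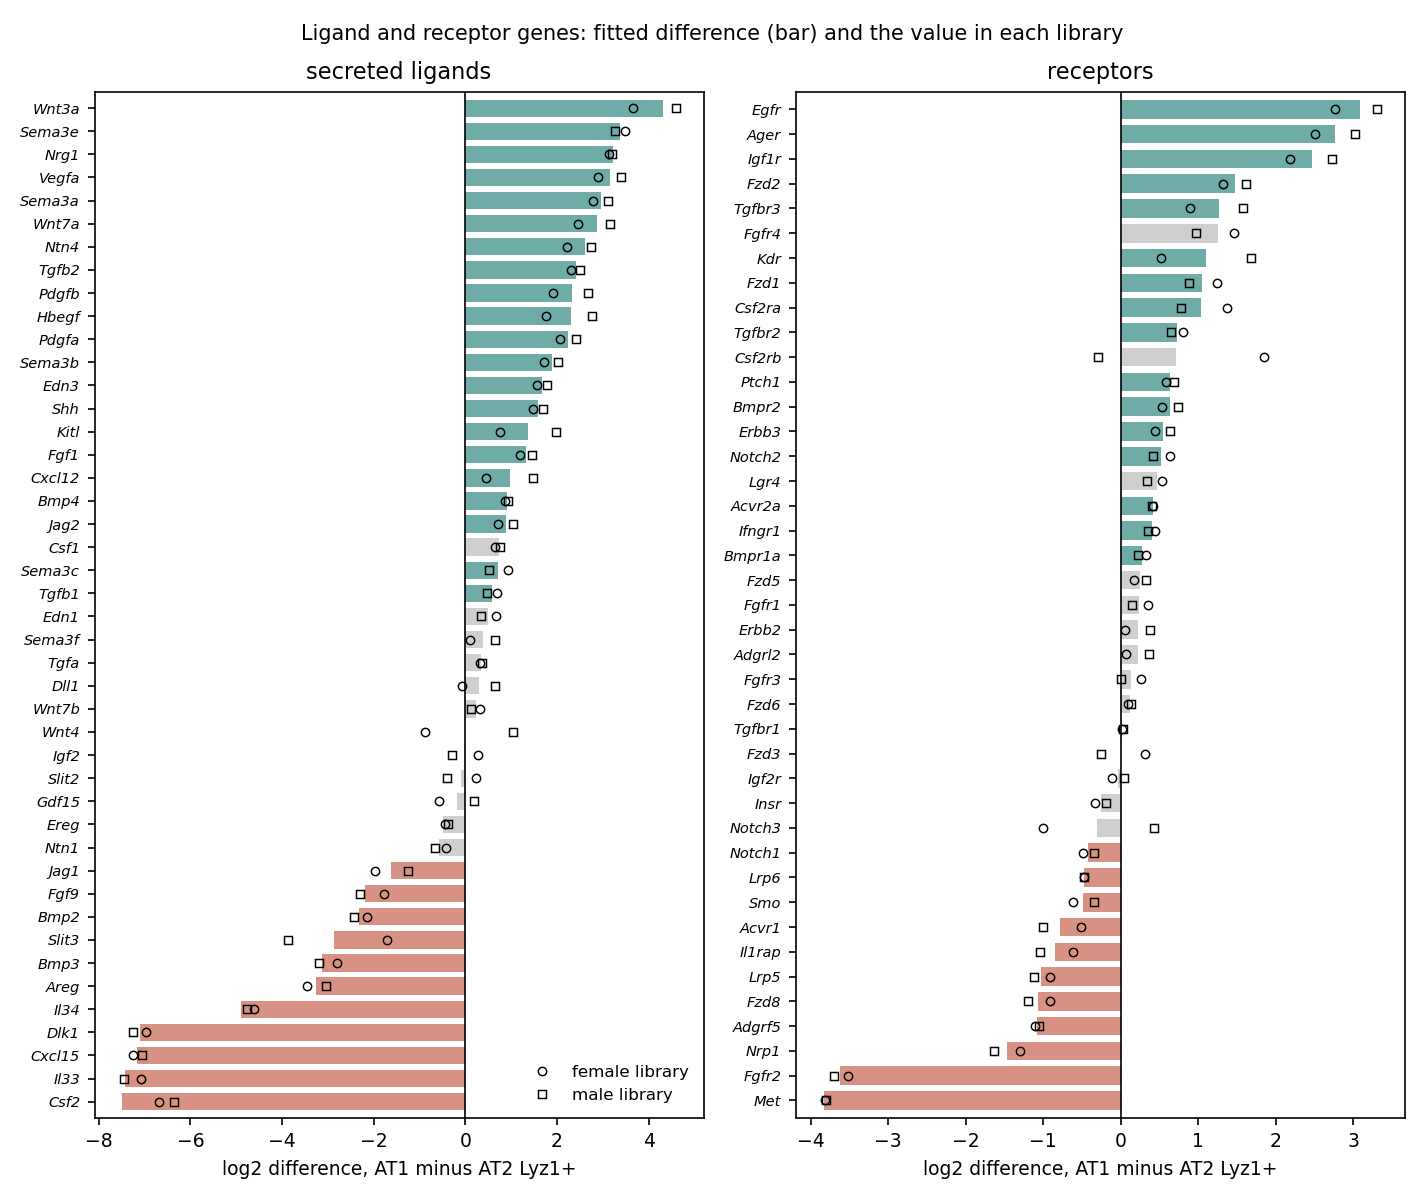
Fitted log2 difference, AT1 minus AT2 Lyz1+, of ligand (left) and receptor (right) genes in order of size (bars, grey where not called), with the value in the female (circle) and male (square) library. Vegfa, Pdgfa, Egfr and Igf1r lie on the AT1 side, and Csf2, Il33, Cxcl15, Dlk1, Met and Fgfr2 on the AT2 Lyz1+ side.

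MHC class II genes and a part of the defence genes were higher in AT2 Lyz1+ cells. Of the MHC class II list 6 of 7 genes tested were higher there and none in AT1 cells (median log2 difference -3.19). Cd74, the invariant chain, had 163 and 296 CPM in AT2 Lyz1+ cells and 22.2 and 10.8 CPM in AT1 cells (-4.18 ± 0.47), and the alpha chain gene H2-Aa had 10.1 and 24.2 CPM in AT2 Lyz1+ cells and 2.20 and 1.79 CPM in AT1 cells (-3.40 ± 0.36). The male library had the higher level of both in AT2 Lyz1+ cells. With the authors' AT2 class in place of AT2 Lyz1+, 2 of the 7 genes were called, and with equal numbers of cells 5 were, with a median of -2.45. The summed immune markers, given below, were higher in AT1 cells. Of 18 tested genes of lysozymes and secreted defence proteins, 10 were higher in AT2 Lyz1+ cells (median log2 difference -2.05) and 1 in AT1 cells, the airway secretoglobin gene Scgb3a1 at 18.5 and 1.04 CPM in AT1 cells and 0.498 and 0.486 CPM in AT2 Lyz1+ cells, and 7 were not called. The Scgb3a1 difference rested on the female library, with a log2 difference of 4.55 there and 0.61 in the male. It was not called without the block, and it fell below the filter on low counts with equal numbers of cells and without the barcodes marked by Scrublet. Without those barcodes 14 of 16 tested genes of the list were higher in AT2 Lyz1+ cells and 0 in AT1 cells, with a median log2 difference of -3.88. Chil1 (-6.52), Lcn2 (-4.58), Lbp (-4.29), C3 (-3.43) and Wfdc2 (-2.84) were higher in AT2 Lyz1+ cells. Without the barcodes marked by Scrublet C3 stood at -5.67, Lcn2 at -6.18 and Lbp at -5.34.

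Cell cycle genes showed 15 of 28 tested genes higher in AT1 cells and 4 in AT2 Lyz1+ cells, but the count depended on the processing. With DESeq2 it was 8 and 3, with scaling by library size alone 18 and 2, with equal numbers of cells 5 and 3 of 22, and without the barcodes marked by Scrublet 10 and 5 of 24, with a median log2 difference of 0.39 in place of 1.02. Rrm2 (3.14) was higher in AT1 cells, and Stmn1 (-1.47) and Tyms (-1.24) in AT2 Lyz1+ cells. Tpx2 and Ccnb1 were also called higher in AT1 cells, with 98 and 74 UMIs of Tpx2 there and 0 and 12 UMIs in AT2 Lyz1+ cells, and with 39 and 25 UMIs of Ccnb1 there and 2 and 3 UMIs. For Mki67, a marker of dividing cells with 8.62 and 6.77 CPM in AT1 cells and 3.48 and 3.25 CPM in AT2 Lyz1+ cells, at least 10 UMIs were found in 4 AT1 cells of each library. Its log2 difference was 0.77, and -0.10 and not called without the barcodes marked by Scrublet. Cdkn1a, an inhibitor of the cycle, had 166 and 176 CPM in AT1 cells and 46.7 and 29.6 CPM in AT2 Lyz1+ cells (1.81 ± 0.19).

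Markers of other cell types were higher in AT1 cells as well, and their part in the results was not tested. The 10 endothelial markers summed to 1301 and 901 CPM in AT1 cells and 759 and 282 CPM in AT2 Lyz1+ cells, against 12519 and 12204 CPM in gCap cells, and 9 of 10 were called higher in AT1 cells. The mesenchymal markers summed to 240.3 and 121 CPM in AT1 cells and 77.9 and 56.0 CPM in AT2 Lyz1+ cells, with 7 of 9 called higher in AT1 cells. The immune markers summed to 2128 and 345 CPM in AT1 cells and 535 and 166 CPM in AT2 Lyz1+ cells, with 9 of 9 called higher in AT1 cells. Without the block 1 endothelial, 3 mesenchymal and 2 immune markers were called. Without the barcodes marked by Scrublet 0 of 8 immune markers were called, with a median log2 difference of 0.08. The 13 airway markers summed to 1037 and 1057 CPM in AT1 cells and 324 and 639 CPM in AT2 Lyz1+ cells, with 5 of 8 called higher in AT1 cells and 1, Cyp2f2, in AT2 Lyz1+ cells. With equal numbers of cells 4 were tested, of which 1 was higher in AT1 cells and 2 in AT2 Lyz1+ cells, and the median log2 difference was -2.13 in place of 2.79. Of these markers 3 and 2 had no UMI in AT1 cells, and 5 and 3 had none in AT2 Lyz1+ cells. Scgb1a1, the club cell secretoglobin, reached 10 UMIs in 11 and 10 AT1 cells, and the tenth of AT1 cells with the most held 99.2% and 99.6% of its UMIs there. In AT2 Lyz1+ cells Scgb1a1 reached 10 UMIs in 17 and 57 cells. Foxj1, the ciliated cell factor, had 53 and 91 UMIs in AT1 cells from 7 and 10 cells. The ciliated cell marker Tppp3 (3.20) was spread over more cells. It reached 10 UMIs in 442 and 277 AT1 cells (21.5% and 15.7%) and in 9 and 5 AT2 Lyz1+ cells. The tenth of AT1 cells with the most Tppp3 held 38.6% and 45.9% of its UMIs there. Msln, a mesothelial gene, had 963 and 858 CPM in AT1 cells and 45.2 and 19.6 CPM in AT2 Lyz1+ cells (4.54 ± 0.29), and it was the only gene tested of the 6 mesothelial markers. The red cell markers summed to 150.2 and 100.3 CPM in AT1 cells and 213 and 13.9 CPM in AT2 Lyz1+ cells, with 2 of 4 called higher in AT1 cells. That direction turned with equal numbers of cells (0 and 3 of 3), without the barcodes marked by Scrublet (0 and 3 of 4) and with both stricter cell filters (0 and 2 of 4).

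At postnatal day 21 the same genes were read in the authors' AT1 and AT2 classes, since no class there was named AT2 Lyz1+. AT1 and AT2 cells numbered 40 and 59 after hyperoxia and 32 and 133 in room air in females, and 57 and 84 after hyperoxia in males. The male room air library had 14 and 7 cells and was left out. The libraries differ from those of day 1 in age and, for 2 of the 3, in treatment, and no test was made. Of the 1390 genes called at least 4-fold apart at day 1, 818 had at least 50 UMIs in these libraries, and 717 of those had the direction of day 1 in all 3. These genes were picked for a wide difference between AT1 and AT2 Lyz1+ cells, so a shared direction is likely from the choice itself. The share among all genes tested was not computed, and the count is a description only. Lyz1 had 1639, 2063 and 708 CPM in AT2 cells of the female hyperoxia, female room air and male hyperoxia libraries. Lyz2 had 16040.2, 20950.2 and 21491 CPM in the same cells. Dlk1 was at 0 UMIs in both classes of all 3 libraries. Il33 had 175, 186 and 194 CPM in AT2 cells. H2-Aa had 595, 719 and 609 CPM there, against 12.3 CPM or less in the AT2 class and 24.2 CPM or less in AT2 Lyz1+ cells at day 1. For Fgfr2 the log2 ratios of AT1 over AT2 were -0.25, -0.87 and -0.11, closer to 0 than the -3.21 of day 1 with scaling by library size alone, the nearest to the scale of these ratios.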

How the data were processed

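Libraries were made with 10x Genomics 3' v3.1 chemistry from live-sorted lung cells (3 pooled mice a library), per the labels' protocols. The matrices the authors deposited hold UMI counts, whole and not normalized, and each cell's class is the cluster name in the authors' own annotation. The submitters' processing notes name Cell Ranger 6.0.0, Seurat 4.1.1 and the mm10 build. Whether reads in introns were counted, whether counting used strand and how doublets were treated are not given in the sources used here. Coordinates are from GENCODE M21 (GRCm38), in which 32235 of the 32285 genes had an ID.

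UMIs were summed per library and class (22729811 and 17271054 in AT1 cells, 8037606 and 20587079 in AT2 Lyz1+ cells). Genes were filtered with filterByExpr, scaled with TMM and tested with edgeR 4.0.16 (R 4.3.3, limma 3.58.1) by the quasi-likelihood test, two-sided, with the library as a block (1 residual degree of freedom). The Benjamini-Hochberg adjustment ran over all 13859 genes. The library pairs the classes because both come from the same pool. CPM are per 1000000 UMIs of the class, without TMM factors. Log2 differences are after TMM scaling and so are not plain ratios of CPM. Intervals of single libraries are exact Poisson or binomial at 95% and cover counting error only. Doublets were called with Scrublet in scanpy 1.11.5 (Python 3.11.15) on every deposited barcode, which marked 10.9% and 6.22% of the cells with a class (21.4% and 9.80% of AT1 cells, 23.1% and 9.30% of AT2 Lyz1+ cells). Run on the cells with a class alone, it marked 8.19% and 0.177% (18.6% and 0.283% of AT1 cells, 6.14% and 0.588% of AT2 Lyz1+ cells). The run on every barcode was used because the other marked so few cells of the male library, and values without doublets depend on that choice. They were not computed with the other run. The scripts were tested on simulated data.

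The members and gene lists were chosen with earlier results of these data known. Named genes were the 12 called genes with the largest difference in each direction among genes with at least 100 UMIs in each library of the higher class and the same direction in both libraries, without mitochondrial, ribosomal protein and haemoglobin genes, and up to 4 members per list and direction, with the surfactant protein, lysozyme, aquaporin, sodium channel and collagen IV genes. Mki67, Nkx2-1, Yap1 and other single members of the lists were named in addition after their values were seen. At day 21, log2 ratios used CPM with a prior count of 2 and classes with at least 20 cells. The alternatives were DESeq2 1.42.0, other scalings, no filter, no block, a fit of 20 day 1 classes, each library left out, doublets left out, equal numbers of cells (407 a class), stricter cell filters, only cells with at least 5000 UMIs, and the authors' AT2 class in place of AT2 Lyz1+. The last pair was chosen after seeing the data.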

Additional observations from a re-analysis of the deposited data

Results flagged for a closer look

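A handful of named genes were higher in AT2 Lyz1+ cells than in AT1 cells in both libraries of day 1 after TMM scaling, and higher in AT1 cells than in the authors' AT2 class in each of the 3 libraries of day 21 with at least 20 cells of both classes. These opposite directions drew attention to them, and the difference between the ages was not tested. The classes set against AT1 also differ, because no class of day 21 was named AT2 Lyz1+. The log2 ratios of AT1 over the AT2 side follow, after TMM at day 1 and from CPM without TMM at day 21. With scaling by library size alone the day 1 values were -1.74 for Cyp2f2, -0.39 for Anxa4, -0.14 for Ier2 and -0.18 for Egr1, of which the last 2 were not called, and 0.0093 for Stk3 and 0.12 for Ccnd1, so that the directions of Stk3 and Ccnd1 were not opposite on that scale. Cyp2f2, a cytochrome P450 of club cells, had -2.14 at day 1 and 4.29 to 5.99 at day 21. Ciliated cell markers moved with it in the AT1 cells of day 21: Foxj1 had 115, 322 and 114 CPM there in the female hyperoxia, female room air and male hyperoxia libraries, Ccdc113 had 76.4, 271 and 84.3 CPM, and both were at 0 UMIs in AT2 cells. At day 1 AT1 cells held 2.33 and 5.27 CPM of Foxj1. The part of these markers in the result was not tested. Anxa4, a membrane-binding annexin, had -0.79 at day 1 and 0.55 to 0.87 at day 21. Stk3, a kinase of the Hippo pathway, had -0.39 at day 1 and 0.58 to 1.32 at day 21. Ccnd1, cyclin D1, had -0.29 at day 1 and 0.05 to 0.79 at day 21. The immediate early genes Ier2 and Egr1 had -0.54 and -0.58 at day 1, and 0.21 to 0.81 and 0.23 to 2.74 at day 21. With the authors' AT2 class of day 1 in place of AT2 Lyz1+, the day 1 values were -1.67 for Cyp2f2, -0.65 for Anxa4, -0.35 for Stk3, -0.93 for Ccnd1, -0.29 for Ier2 and -0.06 for Egr1.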

How the results depend on the processing

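The count of called genes was 3695 with DESeq2 (1786 higher in AT1 cells and 1909 in AT2 Lyz1+ cells), of which 3670 were also called by edgeR. It was 8400 with scaling by library size alone (6534 and 1866) and 2743 with the authors' AT2 class in place of AT2 Lyz1+ (1375 and 1368), a class with 54 cells in the female library. The causes of these shifts were not tested. Under the other alternatives it lay between 5085 (equal numbers of cells) and 7671 (doublets left out). Without the replicate block, which pairs the classes of a library, 5722 genes were called, 5675 of them also with it. Of 149 named genes, the share that lost its call was highest with the AT2 class (27), without the block (18) and with 20 day 1 classes in 1 fit (16), and 10 lost it with DESeq2. Among the 149, directions reversed for Stk3 (0.0093) and Ccnd1 (0.12) with scaling by library size alone, for Hba-a1 with doublets left out (-0.53) and with equal numbers of cells (-1.18), and for Hba-a2 with equal numbers of cells (-1.55). The called genes given with values in the text that lost a call in at least 1 alternative include Ankrd1, Anxa4, Ccnb1, Ccnd1, Chpt1, Cldn18, Egr1, Fgf9, Frem2, H2-Aa, Ier2, Lyst, Mgll, Mki67, Pacsin3, Scgb3a1, Stk3, Tyms and Vgll4. With the AT2 class 0 of 10 endothelial markers, Kdr among them, were called. With doublets left out 0 of 8 immune markers were called, a list that holds Laptm5 and Ptprc. Of the red cell markers, which include Hba-a1 and Hba-a2, 0 of 4 were called higher in AT1 cells with the stricter cell filters. Leaving out doublets moved log2 differences away from 0 for several AT1 genes, to 4.28 for Cav1, 4.54 for Cavin3, 4.92 for S100a6, 3.49 for Aqp1, 4.57 for Scnn1b, 4.57 for Ccn2, 4.98 for Wnt3a, 4.29 for Ier3, 5.26 for Msln, 6.04 for Spock2, 6.28 for Cped1 and 5.78 for Wfdc1, and to -4.89 for Cd74, -3.09 for Col18a1 and -2.64 for Kcnq1 on the other side. With equal numbers of cells Cyp2f2 stood at -4.37 and H2-Aa at -2.45. Mki67, named in addition, also reversed, to -0.10 with doublets left out and -0.25 with equal numbers of cells. Leaving out a library leaves 1 value a class and no test. The log2 difference of a single library was computed with a larger prior count than the fitted one, which draws it toward 0 where UMIs are few. For Cblif, Cst8 and Pbld2 the fitted value lies outside the values of both libraries. A move can thus come from the calculation as well as from the library. No called gene among those named reversed, but 41 of 147 moved by over 1.5-fold from the value over both libraries (36 in the female library alone and 30 in the male alone). Of these 14 had 3 or fewer UMIs in a library of the lower class, so that their fitted values are imprecise: Ankrd1, Ankrd34b, Ccdc113, Ccnb1, Cd79a, Ciita, Csf2, Cyp2s1, Fabp12, Foxj1, Gm16212, Gm38405, Tpx2 and Ube2c. The log2 differences of the other 27, female and then male, were 0.90 and 2.06 for Acsl3, 2.16 and 3.52 for Aqp1, -7.44 and -6.81 for C6, 2.48 and 3.71 for Cav1, 3.05 and 4.42 for Cavin3, -6.82 and -7.02 for Cblif, 3.38 and 4.54 for Ccn2, -3.28 and -5.16 for Cd74, 2.42 and 0.97 for Coro1a, 3.93 and 6.38 for Cped1, -7.55 and -7.14 for Cst8, -2.53 and -4.06 for H2-Aa, -1.96 and -4.23 for H2-Eb1, 1.20 and 2.35 for Hba-a1, 1.78 and 3.04 for Hspb1, 2.91 and 4.15 for Ier3, 0.52 and 1.69 for Kdr, 3.22 and 1.03 for Laptm5, -3.72 and -5.55 for Lcn2, -7.20 and -6.73 for Pbld2, 2.46 and 0.92 for Ptprc, 3.71 and 5.81 for Rasgrf2, 4.55 and 0.61 for Scgb3a1, 3.41 and 5.65 for Serpinb9b, 4.37 and 5.81 for Spock2, 4.08 and 5.36 for Wfdc1 and 3.67 and 4.59 for Wnt3a. With 2 pools a side and 407 AT2 Lyz1+ cells in the female library, genes with few UMIs were measured coarsely: 3 UMIs are the floor for a count of 0.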

Other observations

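Genes known to respond to tissue dissociation and heat shock differed in both directions between AT1 and AT2 Lyz1+ cells: 9 of 20 genes tested were higher in AT1 cells and 5 in AT2 Lyz1+ cells, with a median log2 difference of 0.19. The AT2 Lyz1+ count was near the 23.2% of all genes tested. With scaling by library size alone the counts were 14 and 1, with a median of 0.59, against 6534 and 1866 of all 13859 genes tested. Ier3 had 612 and 701 CPM in AT1 cells and 61.3 and 29.9 CPM in AT2 Lyz1+ cells (3.54 ± 0.32), and Hspb1, a small heat shock protein gene, had 214 and 255 CPM in AT1 cells and 46.9 and 23.4 CPM in AT2 Lyz1+ cells (2.42 ± 0.31). Socs3, an inhibitor of cytokine signalling, had 51.3 and 38.9 CPM in AT2 Lyz1+ cells and 42.2 and 26.7 CPM in AT1 cells (-0.81 ± 0.10). What part the preparation of the cells had in these values was not tested.

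The class difference was somewhat wider in the male library by the medians, and by counts of genes mainly on the AT1 side. Among the 628 genes called at least 4-fold higher in AT1 cells the median log2 difference was 2.51 in the female and 2.69 in the male library, and 439 were farther from 0 in the male. Among the 762 called at least 4-fold higher in AT2 Lyz1+ cells the medians were -2.87 and -3.06, and 453 were farther from 0 in the male. Over all genes tested 7949 of 13859 were, a share close to that among the 762 genes. Of the 3227 genes called higher in AT1 cells 2197 were farther from 0 in the male. Of the 3214 called higher in AT2 Lyz1+ cells 1787 were, a slightly lower share than over all genes tested. With 1 library a sex this was not tested, and the female library held more cells marked by Scrublet.

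The letters searched upstream of single genes were about as frequent in both 4-fold sets. CTCAAG was in 13.5% of 630 promoter windows of the AT1 set, 13.7% of 731 of the AT2 Lyz1+ set and 12.5% of the 13618 windows of tested genes. GGAATG was in 10.95%, 12.04% and 10.9% of the same windows, and CAGGAAGT in 2.22%, 2.33% and 2.67%. TATAAA was in 11.1% and 9.03% of the windows of the sets and in 6.71% of those of tested genes. These shares are descriptions of the letters, with no test.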
